A study of Mus musculus with 6 samples.

Results

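The neurotrophins and their receptors were examined in translating RNA of *Kiss1* cells from the medial amygdala (MeA) of female mice that did or did not receive estradiol. The group held 6 genes of the 13886 in the expression table. They were taken by gene symbol, and the group was chosen with earlier results of these data known. The 6 were the ligands *Bdnf* and *Ntf3*, the tyrosine kinase receptors *Ntrk2* and *Ntrk3*, the p75 receptor *Ngfr* and the sorting receptor *Sort1*, and all 6 symbols were listed.

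Neurotrophins are secreted growth factors that are made as longer precursors. The mature proteins bind Trk receptor tyrosine kinases, which signal through the Ras-MAPK, PI3K-Akt and PLC-gamma routes to promote neuronal survival, growth and synaptic strengthening. The precursors bind p75 together with sortilin, a pairing linked to cell death and to synaptic weakening. In the adult forebrain BDNF and its receptor TrkB are well known for their part in plasticity, the amygdala included.

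Female KissRibo mice (Kiss1Cre+/Rpl22HA+/+) carried an HA-tagged ribosomal protein that is expressed after recombination by a Cre driven from the *Kiss1* gene, so that ribosomes of Cre-expressing cells, with the RNA on them, could be pulled down from MeA micropunches. Ovariectomy was done at 8 weeks of age in every female, and all of them received estradiol capsules for 4 days, which were then taken out for 7 days. The E2 group was then given a new estradiol capsule for 5 days and the OVX group was not. Each group gave 3 libraries, each a pool of 4 females, so that the replicates were separate pools and the libraries represented averages over animals. The recombination that marks the cells is permanent, and a cell that once expressed the Cre keeps the tag whatever its *Kiss1* level at collection.

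Values were log2 CPM, the log2 of read counts scaled to a common library size. The scaled library sizes that the table implied ranged from 28076099 to 34161827 reads, and Pearson correlations of log2 CPM between libraries ranged from 0.977 to 0.989 across genes. *Kiss1* itself was listed under 2 gene models, and the model with the higher values, ENSMUSG00000115958, ranged from 1.13 to 2.29 log2 CPM in the OVX libraries and from 3.45 to 3.80 in the E2 libraries. *Cck*, a marker of these cells, ranged from 8.88 to 9.07 log2 CPM in OVX and from 9.11 to 9.34 in E2. The *Kiss1* cell markers, among them *Kiss1* under both models, *Cck*, *Esr1* and *Pgr*, gave 6 rows, all without overlap between groups and at an unadjusted p under 0.05, 5 of them higher in E2 and *Esr1* lower. Of these, the *Kiss1* model above and *Esr1* passed the adjusted threshold. Over all genes, 13.7% did not overlap between groups and 8.56% had an unadjusted p under 0.05, 4.21% higher and 4.34% lower in E2. Transcripts of other cell types were also present: the 10 astrocyte markers summed to 2185 to 2635 CPM in OVX and 2373 to 2748 CPM in E2, and the 10 oligodendrocyte markers to 1678 to 2331 CPM and 1875 to 2580 CPM. Of the oligodendrocyte markers 9 of 10 were higher in E2, 4 of them at an unadjusted p under 0.05 and none past the adjusted threshold. Another 6 markers, of excitatory neurons in forebrain areas other than the MeA, summed to 855 to 1109 CPM in OVX and 651 to 846 CPM in E2, with all 6 lower in E2, 5 of them at an unadjusted p under 0.05 and none past the adjusted threshold. Pull-downs from Cre-negative females and input RNA were not analysed here, so the levels below are those of the pull-down and were not assigned to *Kiss1* cells alone. In such bulk material, fewer cells of a type and less RNA per cell cannot be told apart.

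The genes lay on 6 different chromosomes (coordinates on GRCm38). *Bdnf* (ENSMUSG00000048482) spanned chr2:109674700-109727007 on the plus strand with 11 annotated transcripts. *Ntf3* (ENSMUSG00000049107) spanned chr6:126101412-126166910 on the minus strand. *Ntrk2* (ENSMUSG00000055254) spanned chr13:58806569-59133970 on the plus strand with 10 transcripts, and *Ntrk3* (ENSMUSG00000059146) spanned chr7:78175959-78738012 on the minus strand with 20. *Ngfr* (ENSMUSG00000000120) spanned chr11:95568818-95587735 on the minus strand, and *Sort1* (ENSMUSG00000068747) spanned chr3:108284082-108361511 on the plus strand. Each gene had 1 value per library, so full-length Trk receptors and the truncated forms without a kinase, which both *Ntrk2* and *Ntrk3* make, were counted together, as were all *Bdnf* transcripts. Of the 6217 exonic bases of *Bdnf*, 896 also lay in exons of the antisense gene *Gm45346*, and of the 7569 of *Sort1*, 338 lay in exons of the antisense gene *Gm12523*. The libraries did not keep strand, so reads in those stretches cannot be told apart.

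*Bdnf* is transcribed from several start sites, each with its own promoter, and RefSeq held 7 promoter windows for it on GRCm38.p6, each from 250 bases before to 50 bases after a start. The first stretch below is shown because it holds TCACGTCA, the calcium- and cAMP-responsive element known from *Bdnf* promoter IV. The other stretches hold GGTCA, the short repeat from which the estrogen response element is built, and are shown because the treatment was an estrogen. Further GGTCA matches, 245 and 155 bases before the *Bdnf* start at 109709383, lie on the minus strand and are not shown. Capitals mark the motif, and all stretches read 5′ to 3′ on the plus strand.
Bdnf start at 109692436, chr2:109692374-109692429: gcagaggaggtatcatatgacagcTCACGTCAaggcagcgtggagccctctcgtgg
Bdnf start at 109674700, chr2:109674596-109674648: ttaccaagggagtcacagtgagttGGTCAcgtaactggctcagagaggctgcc
Bdnf start at 109693027, chr2:109692954-109693006: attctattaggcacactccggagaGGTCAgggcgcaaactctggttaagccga

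Both strands of 32851 windows of the same length were searched. TCACGTCA was in 0.441% of them, and it began 38 bases before its *Bdnf* start site. The full estrogen response element, GGTCA and TGACC with any 3 bases between them, was in 0.07% of windows and in none of the 11 windows of *Bdnf*, *Ntf3*, *Ntrk2* and *Ngfr*. The short repeat GGTCA was common, in 40.5% of all windows, and was in 3 of the 7 *Bdnf* windows and in no window of the other 3 genes. The palindromic cAMP response element TGACGTCA was in 1.79% of windows and in none of these 11. No window was listed for *Ntrk3* or *Sort1*. These matches describe letters in a window and were not tested for binding.

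The 6 genes covered a wide range of levels, with *Ntrk2* and *Sort1* at the top and *Ntf3* and *Ngfr* at the bottom. Expressed as log2 CPM per kilobase of the longest transcript, the means over 6 libraries were 5.82 for *Ntrk2* (range 5.75 to 5.86), 5.78 for *Sort1* (5.64 to 5.96), 3.05 for *Ntrk3* (2.88 to 3.18) and 2.95 for *Bdnf* (2.61 to 3.18). The lowest levels per kilobase were those of *Ntf3* at 1.31 (0.80 to 1.92) and *Ngfr* at -0.29 (-0.96 to 0.61). On this scale *Ntrk2* ranked 1159 and *Ngfr* 12617 among 13881 genes with a length. *Ntrk2* and *Sort1* overlapped, with *Ntrk2* above *Sort1* in 4 of 6 libraries, and so did *Ntrk3* and *Bdnf*, with *Ntrk3* above in 4 of 6. The other 3 steps separated in all 6 libraries: *Sort1* was 6.61-fold above *Ntrk3*, *Bdnf* 3.12-fold above *Ntf3* and *Ntf3* 3.04-fold above *Ngfr*, all per kilobase.

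The choice of length mattered for the overlaps and for the size of every step. *Ntrk3*, for example, has a longest transcript of 19703 bases and a longest coding sequence of only 2592. Per kilobase of coding sequence the order was the same, and each gene was above the next in all 6 libraries. The step from *Ntrk2* to *Sort1* was then 1.38-fold and that from *Ntrk3* to *Bdnf* 1.66-fold. *Sort1* was then 2.31-fold above *Ntrk3*, *Bdnf* 8.41-fold above *Ntf3* and *Ntf3* 2.06-fold above *Ngfr*. Without length correction *Ntrk2* averaged 8.95 log2 CPM and ranked 279 of the 13886 genes in the table, while *Ntf3* and *Ngfr* were near its lower end, above 13.2% and 10.4% of genes.

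**Figure D1:**
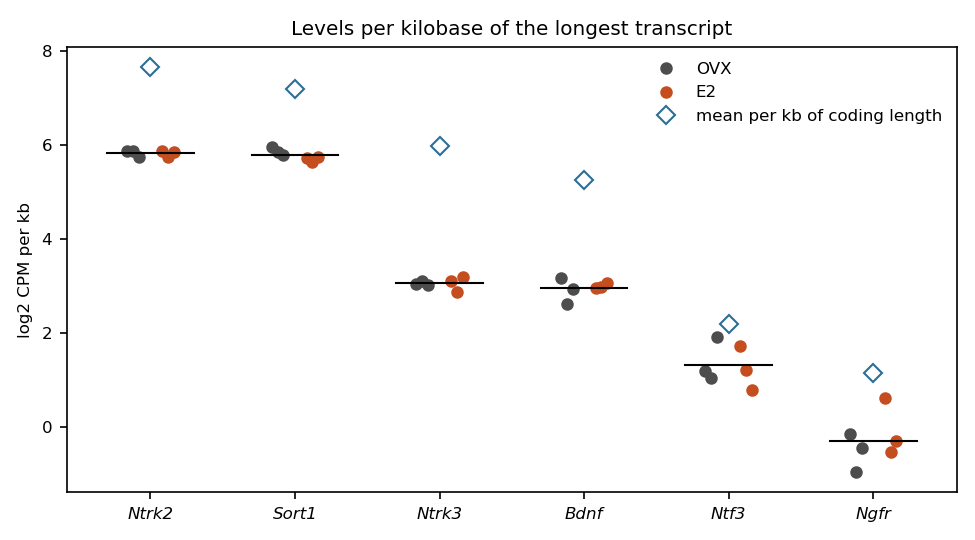
Level of each gene (x axis) as log2 CPM per kilobase of its longest transcript (y axis), with 1 point per library for 3 OVX and 3 E2 libraries, a line at the mean of the 6, and an open diamond at the mean per kilobase of coding length. *Ntrk2* and *Sort1* lie together between 5.64 and 5.96, *Ntrk3* and *Bdnf* between 2.61 and 3.18, and *Ntf3* and *Ngfr* below 1.92.

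The comparison of E2 with OVX asked whether circulating estradiol altered these transcripts. None of the 6 genes passed an adjusted p of 0.05 (limma with a mean-variance trend, Benjamini-Hochberg over all genes), where 40 of 13886 genes did (0.288%), 32 higher and 8 lower in E2. At an unadjusted p under 0.05 there was 1 of the 6, *Sort1*, beside 8.56% of all genes. The median difference over the 6 genes was -0.00 log2 units, and over all genes it was also 0.00.

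*Bdnf*, the most widely expressed neurotrophin of the adult brain, measured 5.27, 4.71 and 5.03 log2 CPM in the OVX libraries and 5.04, 5.08 and 5.16 in the E2 libraries. The E2 values lay inside the OVX range, and the lowest value was OVX replicate 2. The means were 5.002 ± 0.283 in OVX and 5.093 ± 0.060 in E2 (SD, n = 3), a difference of 0.09 log2 units (SE 0.12, limma adjusted p = 0.906), with a 95% interval of 0.888- to 1.28-fold. Between 891 and 1157 reads stood behind each value. Without OVX replicate 2 the difference was -0.06.

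*Ntf3*, which encodes neurotrophin-3, the preferred ligand of TrkC, measured 1.76, 1.61 and 2.49 log2 CPM in OVX and 2.29, 1.78 and 1.37 in E2. The groups overlapped over most of their range, with the highest value in OVX replicate 3 and the lowest in E2 replicate 3. The means were 1.95 ± 0.47 and 1.81 ± 0.47 (SD, n = 3), a difference of -0.14 (SE 0.31, limma adjusted p = 0.948). The 95% interval ran from 0.573- to 1.44-fold, and 83 to 157 reads stood behind each value. The direction turned without OVX replicate 3, to 0.13, and without E2 replicate 3, to 0.08.

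*Ntrk2*, which encodes the BDNF receptor TrkB, measured 8.99, 8.99 and 8.88 log2 CPM in OVX and 8.99, 8.88 and 8.97 in E2. The groups covered the same range. The means of 8.95 ± 0.07 in OVX and 8.95 ± 0.06 in E2 (SD, n = 3) differed by -0.01 (SE 0.06, limma adjusted p = 0.989), and the 95% interval of the E2 to OVX ratio was 0.913 to 1.08. Astrocytes also express *Ntrk2*, mainly in its truncated form. All 10 astrocyte markers were higher in E2 with none past the adjusted threshold, the ranges of their sum overlapped between groups, and their part in the *Ntrk2* level was not tested.

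*Ntrk3*, which encodes the neurotrophin-3 receptor TrkC, measured 7.34, 7.40 and 7.31 log2 CPM in OVX and 7.41, 7.18 and 7.48 in E2. Both the lowest and the highest value were E2 libraries. The means of 7.35 ± 0.05 and 7.36 ± 0.16 (SD, n = 3) differed by 0.01 (SE 0.07, limma adjusted p = 0.993), with a 95% interval of 0.898- to 1.12-fold. For both Trk receptors the sign of these small differences turned under several alternatives.

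*Ngfr*, which encodes p75, the receptor shared by all neurotrophins and their precursors, measured 1.65, 0.82 and 1.35 log2 CPM in OVX and 2.40, 1.26 and 1.50 in E2. E2 replicate 1 stood highest and OVX replicate 2 lowest, and the remaining libraries overlapped. The means were 1.27 ± 0.42 and 1.72 ± 0.60 (SD, n = 3), a difference of 0.45 (SE 0.35, limma adjusted p = 0.798). At 60 to 159 reads per library the 95% interval ran from 0.811- to 2.29-fold. Without E2 replicate 1 the difference was 0.11. Cholinergic neurons of the neighbouring basal forebrain are rich in p75. Of their 6 markers 4 (*Chat*, *Isl1*, *Lhx8* and *Slc18a3*) were not in the table. The others summed to 1.59 to 2.90 CPM in OVX and 1.82 to 2.50 CPM in E2. *Ngfr* itself ranged from 1.76 to 3.11 CPM in OVX and from 2.38 to 5.25 CPM in E2. The part of such neurons in the *Ngfr* level was not tested.

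*Sort1*, which encodes sortilin, a sorting receptor that directs BDNF into the regulated secretory route and pairs with p75 for precursors, measured 8.73, 8.61 and 8.56 log2 CPM in OVX and 8.50, 8.41 and 8.51 in E2. All 3 E2 libraries lay below all 3 OVX libraries, by a narrow margin between 8.51 and 8.56. It was the only one of the 6 whose groups did not overlap, as for 13.7% of all genes, and a separation with E2 lower was found for 6.82%. The means were 8.63 ± 0.09 and 8.47 ± 0.05 (SD, n = 3), a difference of -0.16 (SE 0.06) or 0.894-fold with a 95% interval of 0.818 to 0.977. Its unadjusted p of 0.0175 became 0.433 after limma's adjustment over all genes, and the exact 2-sided permutation test gave p = 0.1, the smallest that 3 against 3 libraries allow. The summed excitatory neuron markers were also lower in every E2 library, and their part in the *Sort1* difference was not tested.

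**Figure D2:**
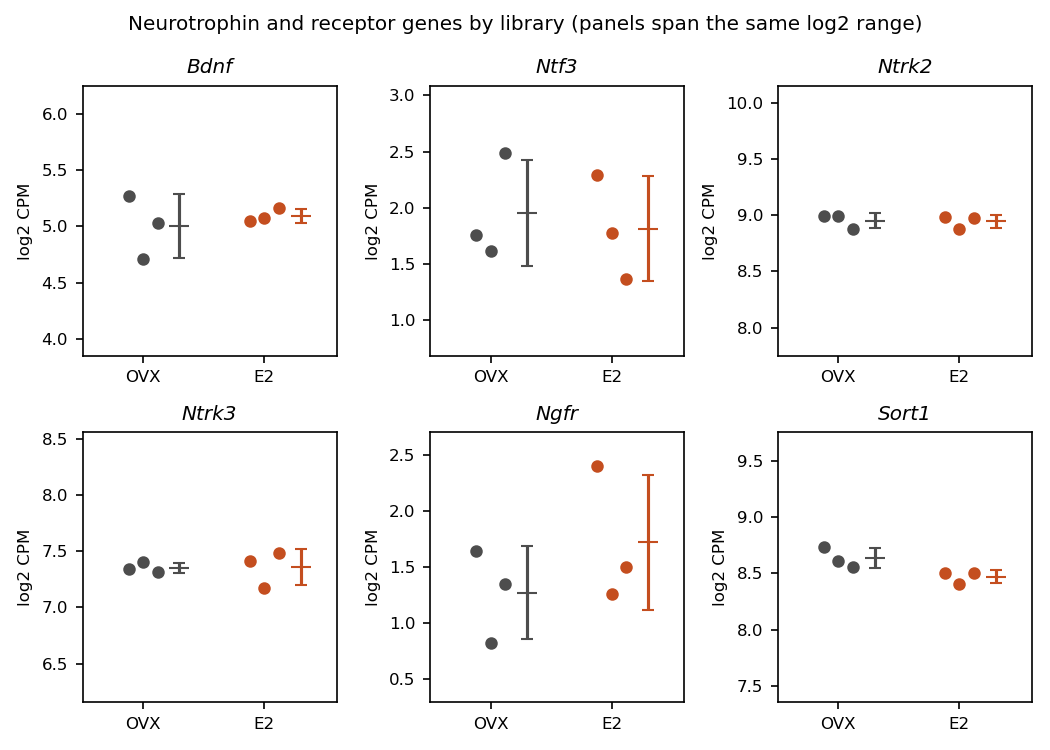
Log2 CPM of the 6 genes in each of the 3 OVX and 3 E2 libraries, 1 panel per gene, all spanning the same log2 range around the gene's mean, with points for libraries and bars at the group mean ± SD. The groups separate for *Sort1* alone, with E2 between 8.41 and 8.51 and OVX between 8.56 and 8.73.

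The spread between pools exceeded counting error for every gene. Within groups the SD of log2 CPM was 0.0642 for *Ntrk2* and 0.0740 for *Sort1*, where counting alone gave 0.0117 and 0.0134. It was 0.468 for *Ntf3* and 0.516 for *Ngfr*, against 0.136 and 0.157 from counting. *Bdnf* and *Ntrk3* lay between them, with SDs of 0.205 and 0.119 against 0.0451 and 0.0203.

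Differences between genes inside a library, which do not depend on library scaling, gave no separation either. The ligand difference *Bdnf* minus *Ntf3* was 3.05 ± 0.49 log2 units in OVX and 3.28 ± 0.52 in E2 (SD, n = 3, exact permutation p = 0.7). The receptor difference *Ntrk2* minus *Ntrk3* was 1.601 ± 0.049 and 1.587 ± 0.107 (n = 3, exact permutation p = 0.9). The difference between TrkB and p75, *Ntrk2* minus *Ngfr*, was 7.68 ± 0.43 and 7.23 ± 0.56 (n = 3, exact permutation p = 0.5). For the p75 coreceptor pair, *Sort1* minus *Ngfr*, it was 7.36 ± 0.37 and 6.75 ± 0.57 (n = 3, exact permutation p = 0.2). After adjustment over these 4 exact tests the p-values were 0.9, 0.9, 0.9 and 0.8, and none could have gone below 0.1 before it. Without E2 replicate 1 the differences that involve *Ngfr* shrank from -0.45 to -0.14 for *Ntrk2* and from -0.61 to -0.28 for *Sort1*, and without OVX replicate 2 to -0.21 and -0.39.

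**Figure D3:**
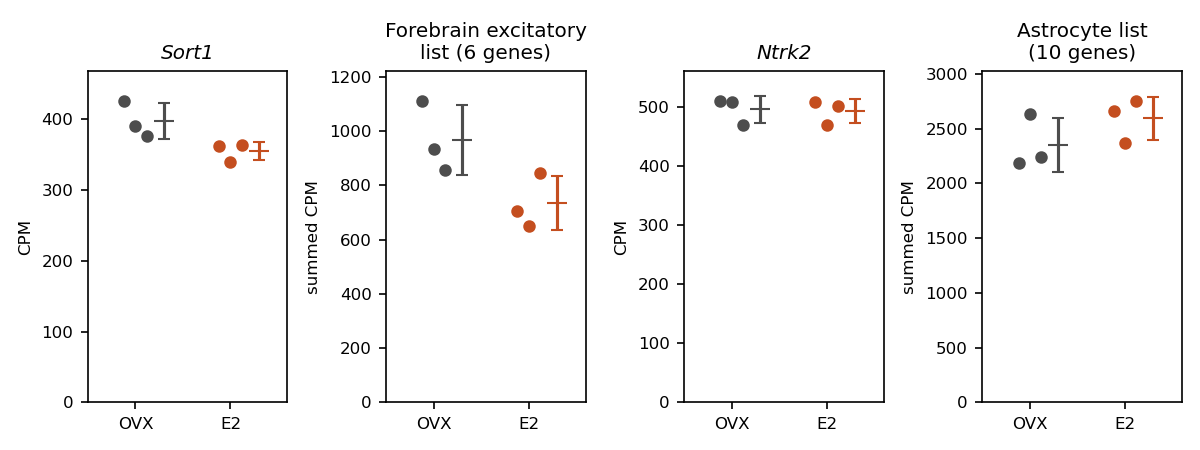
CPM of *Sort1* and *Ntrk2* and summed CPM of the excitatory neuron list and the astrocyte list (y axes start at 0), with points for the 3 OVX and 3 E2 libraries and bars at the mean ± SD. The excitatory markers run from 855 to 1109 CPM in OVX and from 651 to 846 CPM in E2, without overlap, and the astrocyte sums of the groups overlap.

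Among further family genes, *Ntf5*, which encodes neurotrophin-4, was not in the table. Relatives of sortilin and of p75 were in it, and none passed the adjusted threshold. *Sorl1*, which sorts cargo between the Golgi and endosomes, was 7.77 ± 0.10 log2 CPM in OVX and 7.61 ± 0.03 in E2. The difference was -0.17 (SE 0.06, limma adjusted p = 0.436), without overlap and with E2 lower, as for 6.82% of all genes. *Sorcs3* was 6.27 ± 0.03 and 6.39 ± 0.09, a difference of 0.12 (limma adjusted p = 0.679) with every E2 library above every OVX library, as for 6.85% of all genes. *Sorcs1*, *Sorcs2* and the p75 homologue *Nradd* differed by 0.06, -0.03 and -0.29, with overlapping groups.

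**Figure D4:**
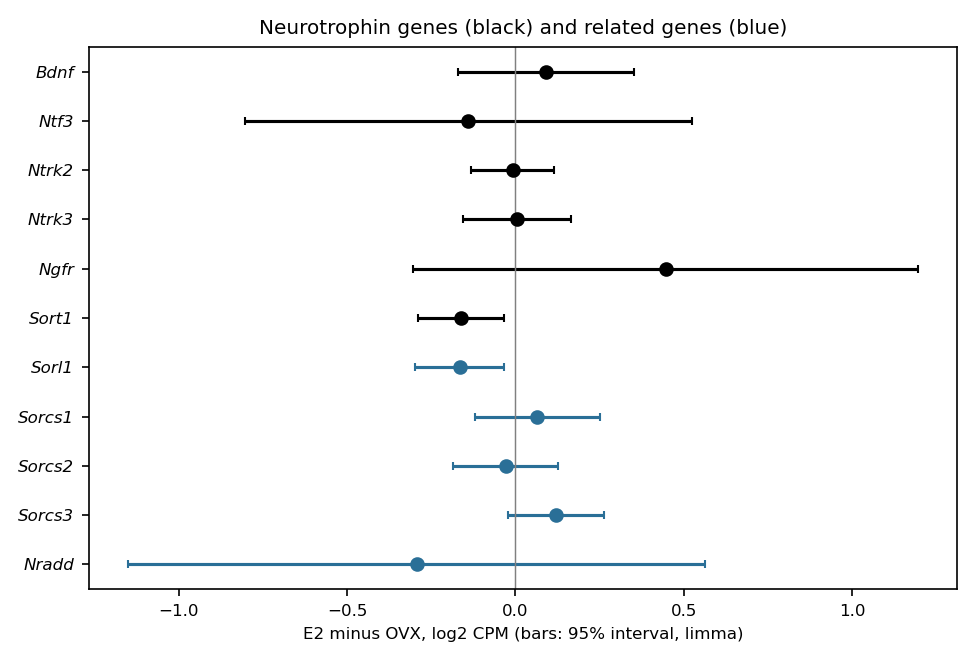
E2 minus OVX difference in log2 CPM (x axis) for the 6 genes, in black, and the sortilin and p75 relatives, in blue, with 95% intervals from limma. The intervals of *Sort1* (-0.29 to -0.03) and *Sorl1* lie below 0, those of the other genes span 0, and no gene passed the adjusted threshold.

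The wider pathway was read from 10 lists holding 201 genes, of which 196 were in the table. Of these, 1 rose past the adjusted threshold and none fell, beside 0.23% and 0.0576% of all genes. At an unadjusted p under 0.05, 5 were higher and 23 lower in E2, or 2.55% and 11.7% of the 196, beside 4.21% and 4.34% of all genes. Groups did not overlap for 18.9% of the 196, beside 13.7% of all genes. The 196 differed from all genes in level and precision. Their median level was 6.16 log2 CPM against 4.76, and their median SE 0.0790 against 0.107. A small difference thus reaches a low p more easily in these lists, and the part of this in the shares was not tested. The pathway genes named below had the smallest unadjusted p of their list, so their separation follows in part from that choice. The median difference was -0.03 log2 units and 57.1% of the 196 were lower in E2, beside a median of 0.00 and 48.9% lower for all genes. The excitatory marker sum was also lower in E2, and the oligodendrocyte markers were mostly higher. The *Kiss1* cell list summed to 568 to 648 CPM in OVX and 669 to 779 CPM in E2. *Cck* made up most of that sum, with means of 502 CPM in OVX and 592 CPM in E2. *Cck* did not pass the adjusted threshold (limma adjusted p = 0.295). *Kiss1* and *Esr1* in the list did, but they made up little of the sum and moved in opposite directions. Cell number and treatment response cannot be told apart in this sum. The part of these cell type markers in the counts was not tested.

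The gene that rose was *Irs2*, an adaptor best known from insulin receptors, in the list of 24 Trk adaptors. It measured 6.34, 6.33 and 6.34 log2 CPM in OVX and 6.89, 6.66 and 6.68 in E2. The OVX libraries were nearly equal and all E2 libraries were above them, with a difference of 0.40 (SE 0.07, limma adjusted p = 0.0284). The call was lost without OVX replicate 1 (adjusted p = 0.101), OVX replicate 2 (0.0562), OVX replicate 3 (0.0811) or E2 replicate 1 (0.136), where the difference still ran from 0.33 to 0.40. It was also lost, at the same difference of 0.40, without the mean-variance trend (limma adjusted p = 0.466) and with the replicate number as a block (0.0713). The other 23 adaptors did not pass, among them the neuronal adaptor *Shc3* at -0.29 and the inhibitory adaptor *Sh2b3* at -0.21, and the list's median was -0.01.

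No gene passed in the 3 signalling routes. The 21 genes of the Ras-MAPK route had a median of -0.01, with the kinases *Rps6ka2* and *Araf* at -0.13 and 0.11. The 24 genes of the PI3K-Akt-mTOR route had a median of 0.01, with the regulatory subunits *Pik3r1* and *Pik3r3* at -0.16 and -0.14. Among 17 genes of the PLC-gamma and calcium route the median was 0.03. There the kinase *Prkca* was 7.49 ± 0.02 log2 CPM in OVX and 7.72 ± 0.04 in E2 (SD, n = 3), a difference of 0.23 (SE 0.05, limma adjusted p = 0.125), while *Prkcb* and *Camk2a* differed by -0.18 each.

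On the precursor side, 12 of 15 listed processing and sorting genes were in the table and none passed. The prohormone convertase *Pcsk1* was 6.05 ± 0.08 log2 CPM in OVX and 6.26 ± 0.08 in E2, a difference of 0.21 with E2 higher in every library (limma adjusted p = 0.397). Its relative *Pcsk2* differed by -0.14 in the opposite direction, also without overlap (adjusted p = 0.454), and *Pcsk5* by 0.35 with overlap. Over all genes 6.85% separated with E2 higher and 6.82% with E2 lower.

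None of the 22 coreceptors and adaptors of p75 passed. *Lingo1*, a partner of p75 in the receptor complex for myelin inhibitors, measured 8.69, 8.47 and 8.44 log2 CPM in OVX and 8.11, 8.12 and 8.34 in E2. *Rtn4r*, the Nogo receptor of the same complex, measured 5.92, 5.60 and 5.63 in OVX and 5.33, 5.11 and 5.38 in E2. For both, all E2 libraries were below all OVX libraries, as for 6.82% of all genes. The differences were -0.35 (SE 0.08, limma adjusted p = 0.112) for *Lingo1* and -0.45 (SE 0.10, limma adjusted p = 0.117) for *Rtn4r*. *Lingo1* passed in 1 of 17 alternatives, without E2 replicate 3, at an adjusted p of 0.0292 (limma), where 66 of all genes passed. Leaving out other libraries gave it a limma adjusted p of up to 0.459, and the fit without the mean-variance trend gave 0.614. *Rtn4r* passed in none. The median of the 22 was 0.02.

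**Figure D5:**
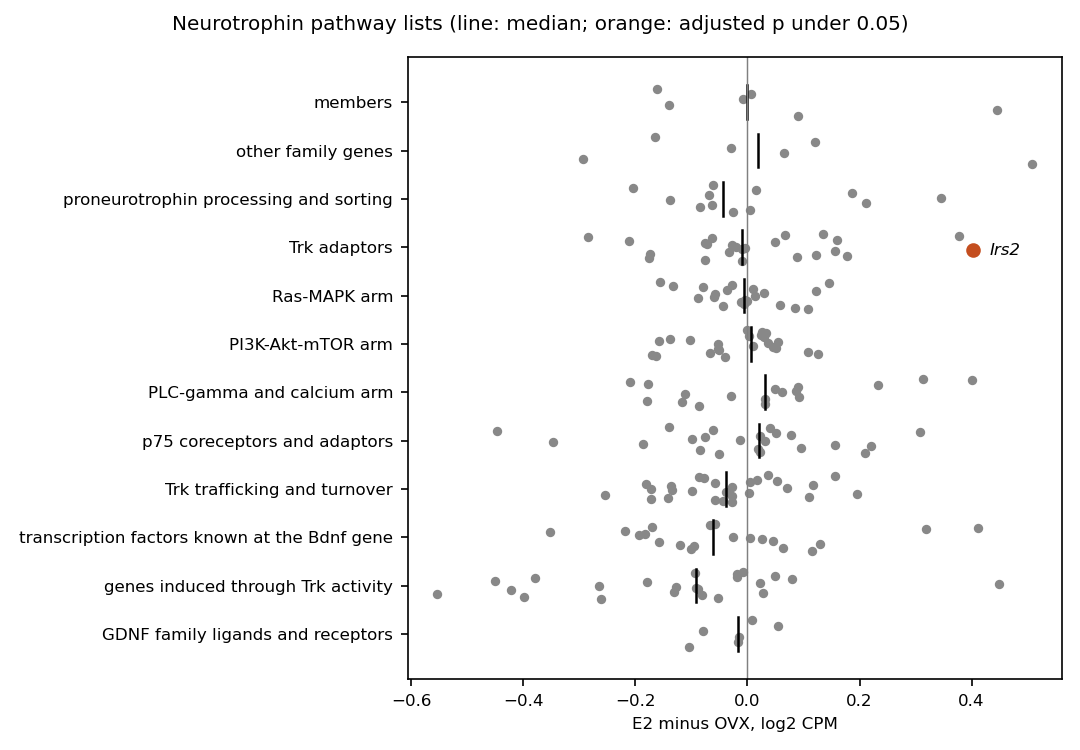
E2 minus OVX difference in log2 CPM (x axis) for every listed gene, 1 point per gene and 1 row per list, with a line at each list's median and genes past the threshold in orange. Only *Irs2*, at 0.40, passed the adjusted threshold, and the list of genes induced through Trk activity has the lowest median, -0.09.

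Genes of Trk trafficking and turnover (27 in the table) had a median of -0.04 with none past the threshold. *Gipc1*, an adaptor of receptor endocytosis, was at -0.25 (limma adjusted p = 0.307) and the phosphatase *Ptprf* at -0.18. Both had E2 lower in every library, as for 6.82% of all genes. *Hap1*, which takes part in vesicle transport, was at 0.20 with overlap.

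Among 20 transcription factors known at the *Bdnf* gene none passed, and the median was -0.06. *Mef2d* and *Mef2c*, activity-dependent factors, were at -0.18 and -0.19 with E2 lower in every library (limma adjusted p = 0.281 and 0.429), and *Neurod2* was at -0.35 with overlap. Of this list 10% did not overlap between groups, beside 13.7% of all genes. Of 23 genes known to be induced through Trk activity, 18 were lower in E2 (78.3%), beside 48.9% of all genes, and none passed. The AP-1 gene *Fosl2* was 4.43 ± 0.08 log2 CPM in OVX and 4.88 ± 0.22 in E2, a difference of 0.45 (SE 0.12, limma adjusted p = 0.195). The synaptic gene *Nptx2* was at -0.45 and the MAPK phosphatase *Dusp5* at -0.55 (adjusted p = 0.400 and 0.412). The excitatory markers, among which *Slc17a7* was at -0.42, were lower in the same libraries, and their part in these lists was not tested.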

How the data were processed

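RNA pulled down with HA-tagged ribosomes was sequenced in 6 libraries, 3 OVX and 3 E2, with kits that do not keep strand. According to the submitters' processing notes and the study's methods, reads were checked with FastQC 0.11.8, trimmed with Trimmomatic 0.38, aligned with STAR 2.6.0a to GRCm38 with Ensembl 98 annotation and counted with RSEM. The authors kept protein-coding genes by a rule of CPM over 1 within either treatment group, scaled by TMM and deposited log2 CPM from voom for 13886 genes, of which 13588 exceeded 1 CPM in every library of OVX, of E2 or of both. A second deposited table holds the authors' own comparison (log2 fold changes, group means, moderated statistics, p-values) and was not used.

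Because the deposited log2 values carry no voom weights, groups were compared with limma 3.58.1 in R 4.3.3 with a mean-variance trend (prior degrees of freedom 9.55), 2-sided, Benjamini-Hochberg over all genes, threshold 0.05. The script was tested on simulated data. SEs and intervals are limma's. Reads per gene were rebuilt from the lowest value of each library, which corresponds to 0 reads plus the 0.5 that voom adds. They were used for counting error and for the alternative voom weights, and intervals from counting cover counting error only. Differences between 2 genes in a library used exact permutation tests. Alternatives were voom weights from rebuilt counts, also with sample quality weights, no trend, robust moderation, median centring, quantile normalization, 2 filters on low values, log2 of CPM plus 1 or plus 0.1, a replicate block and leaving out each library.

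Positions and lengths came from GENCODE mouse release 21 (GRCm38), matched by gene identifier for 13881 genes, and promoter windows from RefSeq (GRCm38.p6). Named were the 6 genes, all further family genes, in each list every gene past the threshold and the 3 with the smallest unadjusted p, and the 3 genes most correlated with each of the 6. A marker was named only where a result turned on it. A few of the genes so chosen are not reported here. The 6 genes, the 10 pathway lists, the GDNF list and the 10 marker lists were chosen with earlier results of these data known. Of the marker lists not described above, summed CPM ranged from 4211 to 4507 in OVX and 4222 to 4624 in E2 for neurons, 121 to 161 and 123 to 140 for microglia, 158 to 298 and 181 to 243 for endothelial and mural cells, 66.1 to 111 and 66.3 to 105 for fibroblasts, and 394 to 473 and 457 to 548 for GABAergic neurons.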

Additional observations from a re-analysis of the deposited data

How the results depend on the processing

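None of the 6 genes passed the threshold in the limma fit reported or under any of 17 alternatives (lowest adjusted p 0.341, for *Sort1* without OVX replicate 3). Their directions were less stable. Leaving out each library in turn gave differences of -0.058 to 0.22 for *Bdnf*, -0.38 to 0.13 for *Ntf3*, -0.047 to 0.027 for *Ntrk2*, -0.058 to 0.097 for *Ntrk3*, 0.11 to 0.67 for *Ngfr* and -0.20 to -0.11 for *Sort1*. *Ntrk2* was also at 0.00055 with sample quality weights and at 0.040 with quantile normalization, and *Ntrk3* at -0.0035 with median centring. Inside libraries, leaving out each in turn gave -0.027 to 0.50 for *Bdnf* minus *Ntf3*, -0.070 to 0.037 for *Ntrk2* minus *Ntrk3*, -0.65 to -0.14 for *Ntrk2* minus *Ngfr* and -0.80 to -0.28 for *Sort1* minus *Ngfr*. Over all genes, 40 passed. Without the mean-variance trend 0 passed (1017 at an unadjusted p under 0.05), leaving out each library gave 20 to 66 (21 without OVX replicate 1, 26 and 20 without E2 replicates 1 and 2, 66 without E2 replicate 3), and the other alternatives gave 35 to 46. In the pathway lists, examined under the alternatives after the data were seen, 1 gene passed, against 0 without the trend, 0 with the replicate block and 0 to 3 when each library was left out. The 3, without E2 replicate 3, were *Irs2*, *Lingo1* and *Nptx2*. *Irs2* passed in 11 of 17 alternatives, and had an adjusted p of 0.466 without the trend, at an unchanged difference of 0.40. The replicate numbers are shared by the groups but nothing pairs the samples: deviations of same-numbered libraries correlated at -0.02, -0.12 and -0.08. A fit with the replicate block gave 35 genes and an adjusted p of 0.0713 for *Irs2*, again at 0.40. The cause of these shifts was not tested. *Ntf3* and *Ngfr* had the fewest reads, 60 to 159 per library, and their spread between pools exceeded counting error.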

Other observations

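The GDNF family, a separate group of neurotrophic factors that signal through the receptor tyrosine kinase RET, had 6 of its 11 listed genes in the table, and the ligands *Gdnf*, *Artn*, *Nrtn* and *Pspn* and the coreceptor *Gfra3* were not listed. None of the 6 passed the threshold, and their median E2 minus OVX difference was -0.02 log2 units. *Ret* averaged 2.83 log2 CPM over the 6 libraries and differed by 0.05. Its coreceptor *Gfra1* averaged 5.49 and differed by -0.10. *Ncam1*, an alternative receptor, averaged 8.37 and differed by -0.08 with E2 lower in every library, as for 6.82% of all genes.

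The genes whose log2 CPM most resembled each neurotrophin gene across the 6 libraries are given as a description, since all points share the same libraries and depth and they are the highest of 10630 or 10631 coefficients per gene. Among genes with a mean log2 CPM of at least 3, *Zfr2*, *Prrt1* and *Slc25a51* were nearest to *Bdnf*, *Slc30a7*, *Kctd18* and *Ift57* to *Ntf3*, and *Col9a3*, *Slc35e2* and *Alpl* to *Ntrk2*. *Tead1*, *Fdxr* and *Klhdc7a* were nearest to *Ntrk3*, *Mrpl55*, *Tmem67* and *Sap30l* to *Ngfr*, and *Edc4* and *Ildr2* to *Sort1*. Pearson coefficients ranged from 0.970 to 0.993, and 2 of the 18 genes were also among the nearest after group means were subtracted. None of the 18 passed the threshold for E2 against OVX.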
